A study of Mus musculus with 8 samples.

Results

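Glucose use in the cerebellum was examined through 37 genes that encode the carriers of glucose and lactate, the enzymes of glycolysis with their regulators, a few enzymes on the glucose 6-phosphate and gluconeogenic side, and the pentose phosphate pathway. The genes were taken by name from the 56691 genes of a count table, and 36 of the 37 had enough reads to be tested among 22423 genes. Fbp2, the muscle form of fructose bisphosphatase, was left out of the test with 2 counts in each of 2 Atm-WT mice, 10 counts in 1 Atm-KO mouse and 0 in the other 5 mice. Bulk RNA was sequenced from the cerebellum of 8 mice aged 6 months. The 4 Atm-KO mice (Atm -/-) came from crosses of heterozygous B6;129S4-Atmtm1Bal/J animals and carried the disrupted allele in every tissue, and the 4 Atm-WT mice (Atm +/+) were littermates. Neither genotype was described as having any treatment. The Atm-WT mice were named 2M, 7M, 13M and 32M and the Atm-KO mice 1M, 7F, 11M and 12M, and values per mouse are given in this order. Only Atm-KO 7F carries the letter F. What the letters M and F stand for was not given, nor was the sex of each mouse. Levels are in CPM, the usual counts scaled to library depth, with TMM factors between libraries, and the difference between genotypes is the log2 fold change of Atm-KO over Atm-WT.

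Glucose enters brain tissue through GLUT1 (Slc2a1), which is dense in the endothelium of brain vessels and in glia, and enters neurons mainly through GLUT3 (Slc2a3). Glycolysis then splits it into pyruvate, with phosphofructokinase as its main regulated step, and lactate dehydrogenase and the monocarboxylate transporters let lactate be made, moved between cells and burned. The pentose phosphate pathway draws off glucose 6-phosphate to make NADPH and ribose 5-phosphate, both of which matter in a tissue with high energy use and oxidative load.

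Libraries held 65967130 to 88030300 counts, so that 33 members had a mean of at least 100 counts and no library fell under 717 counts for any of them. Atm itself was at 71.5 ± 10.1 CPM (SD, n = 4) in Atm-WT mice and at 45.4 ± 4.16 CPM in Atm-KO mice, with no overlap between genotypes and a log2 fold change of -0.66 ± 0.10 (SE, adjusted p = 0.0775 in edgeR). Markers of cerebellar neurons were abundant, and the 7 granule cell markers summed to 4676 to 6798 CPM and the 7 Purkinje cell markers to 9017 to 11228 CPM over the 8 mice. Libraries differed in their content of 7 RNAs that stay in the nucleus, among them Malat1, Neat1 and Meg3. Their sum ran from 4560 to 9211 CPM in Atm-WT mice and from 9651 to 15014 CPM in Atm-KO mice. Atm-WT 32M had the lowest sum, and Atm-KO 1M and 12M stood apart with the highest, so that results are also given below without these 3 mice.

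The 5 members with the smallest unadjusted p (0.000657 to 0.0174 in edgeR) were Slc37a4, Ldhb, Slc2a1, Pfkfb2 and Pfkp. Slc2a1 was 37.6% lower in Atm-KO mice by the fitted fold change, and Ldhb, the heart-type subunit of lactate dehydrogenase, was 18.2% lower. Slc37a4, which carries glucose 6-phosphate into the endoplasmic reticulum, was 36.03% higher. Most of its exonic bases (4112 of 4572) are shared with Trappc4 on the other strand, so part of its reads may belong to Trappc4. Pfkfb2, which makes and breaks down the phosphofructokinase activator fructose 2,6-bisphosphate, was 25.9% higher. Pfkp, the platelet-type phosphofructokinase, was 15.1% higher. Without Atm-WT 32M, Atm-KO 1M and Atm-KO 12M the log2 fold change was -0.64 for Slc2a1 and 0.42 for Slc37a4, against -0.68 and 0.44 in all mice. It was -0.15 for Ldhb, 0.13 for Pfkfb2 and 0.13 for Pfkp, against -0.29, 0.33 and 0.20. None of the 36 members passed an adjusted p of 0.05 in edgeR over all genes (the background was 0.0178% of genes), and the smallest adjusted p among members was 0.0931, for Slc37a4. DESeq2 called 3 of the 36 (8.33% against 6.92% of all genes), namely Slc37a4 and Pfkfb2 as higher and Ldhb as lower, and limma voom called 0.

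At an unadjusted p under 0.05 in edgeR, 10 of the 36 members (27.8%) were set apart by genotype, beside 20.2% of all genes tested. Of these, 3 were higher in Atm-KO mice (8.33% of members, against 11.7% of all genes) and 7 were lower (19.4%, against 8.48%). Every Atm-KO mouse lay above every Atm-WT mouse for Slc37a4, Pfkfb2 and Pfkp, which is 8.33% of members against 6.47% of all genes. Every Atm-KO mouse lay below every Atm-WT mouse for Slc2a1, Ldhb, Tkt, Gapdh and Pfkm, which is 13.9% of members against 5.12% of all genes. That share was 6.98% over protein-coding genes. It was 10.1% over the 20% of genes with the highest mean level, to which all of these members belong. The count of 10 fell to 5 (13.9% of members) without Atm-WT 32M, without Atm-KO 1M or without Atm-KO 12M, beside 15.6%, 13.6% and 14.2% of all genes in those fits. It fell to 2 (Slc2a1 and Slc37a4, 5.56% of members) without all 3, beside 8.29% of all genes. In these 4 fits the share of members was thus near or below that of all genes. Scaling by library size alone left 3 higher and 2 lower members at that p (13.9%, beside 19.2% of all genes) and 0 members with all Atm-KO mice below all Atm-WT mice (2.64% of all genes).

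Most members were slightly lower in Atm-KO mice. The log2 fold change was below 0 for 27 of the 36 (75%), with a median of -0.08 against -0.02 over all genes tested and -0.06 over protein-coding genes, of which 63.8% were lower. The median of members was -0.03 with library size alone (0.03 over all genes), -0.03 with 1 surrogate variable (0.01) and -0.04 when protein-coding genes alone were fitted (-0.02). Members are abundant RNAs, and 21 of them belonged to the 20% of genes with the highest mean level. In that top band 71% of all genes were lower, with a median of -0.06, and 20 of the 21 members were lower, with a median of -0.11. Unadjusted p was under 0.05 in the lower direction for 15.5% of the genes of that band and for 6 of its 21 members (28.6%). Over all 36 members, the 7 lower ones at that p fell to 2 without Atm-WT 32M or without Atm-KO 12M. They fell to 3 without Atm-KO 1M and to 1 without all 3 mice. The shares of all genes at that p, in either direction, also fell in these fits, as given above. In the plot of fold changes by role, 9 of the 36 members lie to the right of 0, among them Slc37a4, Pfkfb2 and Pfkp, and Slc2a1 lies farthest to the left.

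**Figure D1:**
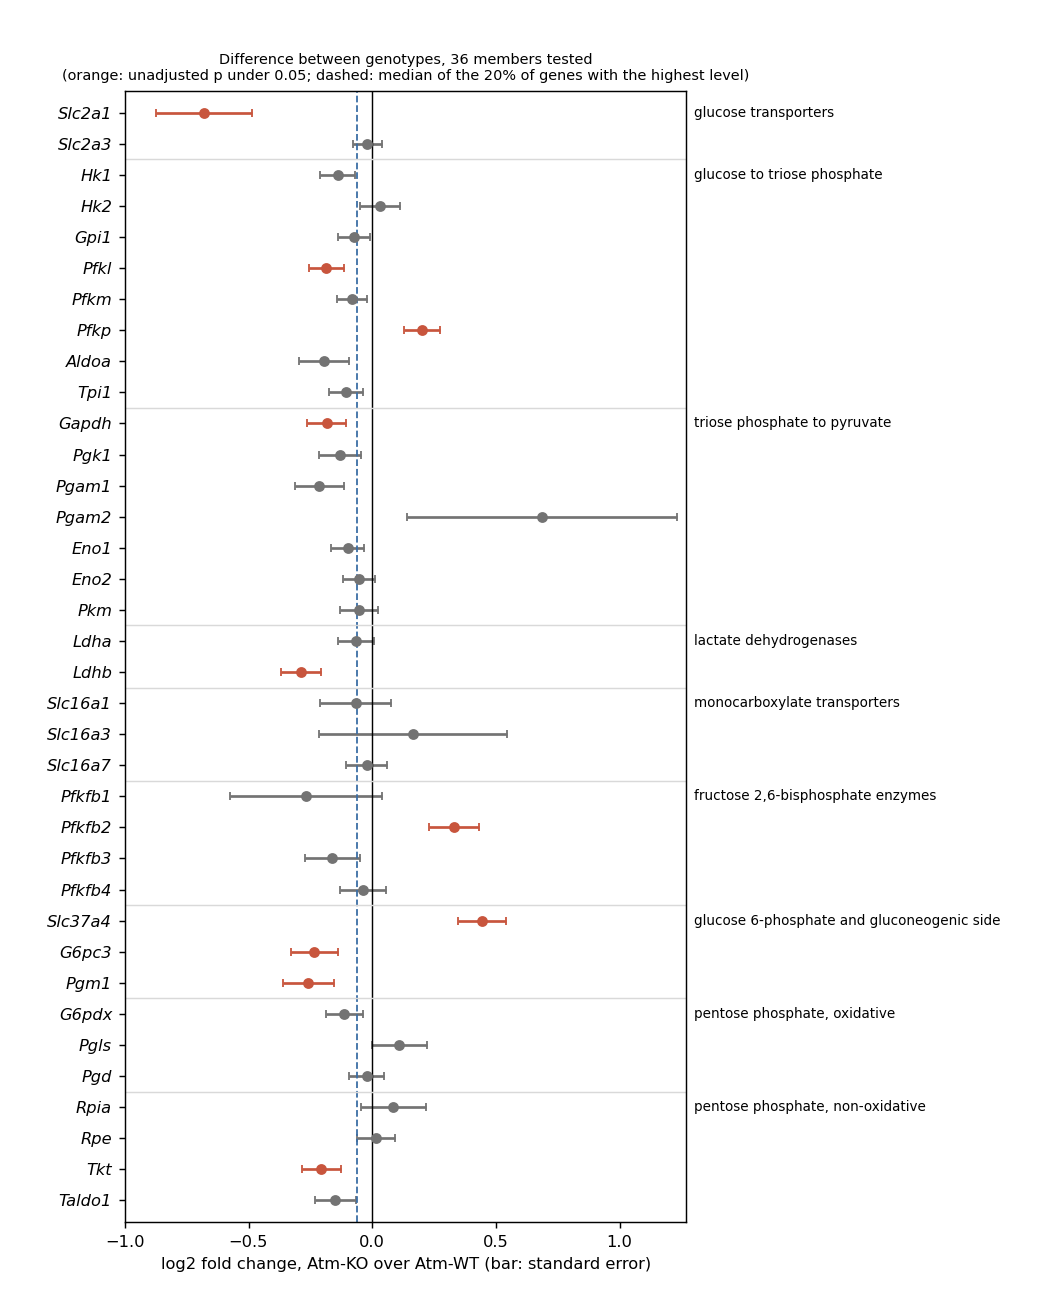
Log2 fold change of Atm-KO over Atm-WT (x axis) for the 36 members tested, grouped by role, with the standard error as a bar. Orange points are the 10 members at an unadjusted p under 0.05, of which Slc2a1 is the farthest to the left, and the dashed line is the median of -0.06 of the 20% of genes with the highest level.

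Of the glucose transporters, Slc2a1 was lower in every Atm-KO mouse and Slc2a3 differed by less than the spread between mice. Slc2a1 (GLUT1, chromosome 4) was at 129, 91.2, 168 and 94.2 CPM in the Atm-WT mice and at 81.0, 91.0, 74.6 and 54.3 CPM in the Atm-KO mice. Atm-WT 2M and 13M stood well above the rest and Atm-KO 12M was the lowest, whereas the lowest Atm-WT mouse and the highest Atm-KO mouse, 7M and 7F, were nearly level. For Slc2a1 the log2 fold change was -0.68 ± 0.20 (SE), with a 95% interval of -1.11 to -0.25 and an adjusted p of 0.116 in edgeR (unadjusted p = 0.00492). It was -0.64 (adjusted p = 0.428 in edgeR) without Atm-WT 32M, Atm-KO 1M and Atm-KO 12M, a fit that keeps Atm-WT 2M and 13M. Over all 17 alternatives it stayed between -0.80 and -0.46, and the value of -0.46 came from leaving out Atm-WT 13M. Slc2a3 (GLUT3, chromosome 6) was at 144, 148, 163 and 145 CPM in the Atm-WT mice and at 147, 152, 144 and 147 CPM in the Atm-KO mice, with the genotypes fully mixed. For Slc2a3 the log2 fold change was -0.02 ± 0.060 (SE), with a 95% interval of -0.15 to 0.11. Per kb of transcript, Slc2a1 made up 44.5%, 35.5%, 47.8% and 36.7% of the Slc2a1 and Slc2a3 sum in the Atm-WT mice and 33.0%, 34.8%, 31.5% and 24.7% in the Atm-KO mice, so that the shares did not overlap.

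Vessel markers were also mostly lower in Atm-KO mice. The 10 endothelial markers summed to 312, 322, 293 and 319 CPM in the Atm-WT mice and to 269.7, 285, 304 and 234 CPM in the Atm-KO mice, with 4 of the 10 genes higher and 6 lower in Atm-KO mice by the log2 fold change. Of the 10, 0 higher and 4 lower genes had an unadjusted p under 0.05 in edgeR, beside 11.7% and 8.48% of all genes. Mural cell markers summed to 199.5 to 241 CPM in Atm-WT mice and to 149.7 to 198 CPM in Atm-KO mice. All 8 mural genes were lower by the log2 fold change (median -0.35), and 4 of the 8 had an unadjusted p under 0.05 in edgeR. Atm-KO 12M was the lowest mouse for both sums and for Slc2a1. Atm-WT 13M, in contrast, had the highest Slc2a1 and the lowest endothelial sum of its genotype. In bulk tissue, fewer cells of a type and less RNA per cell cannot be told apart, and the part of vessel content in the Slc2a1 difference was not tested.

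The sequence in front of Slc2a1, one of the members with the smallest p, is given as context, and it is free of annotated exons. The 250 bases before the canonical GENCODE start of Slc37a4 lie wholly in exons of Trappc4, and those of Pfkfb2 wholly in exons of Yod1, both on the other strand, and are not shown. The window of Slc2a1 covers chr4:118965658-118965907 of GRCm39 on the plus strand and ends at the first base before the gene. Capitals mark the letters CACGC, which read GCGTG on the other strand, one core form of the site bound by hypoxia-inducible factors.
Slc2a1: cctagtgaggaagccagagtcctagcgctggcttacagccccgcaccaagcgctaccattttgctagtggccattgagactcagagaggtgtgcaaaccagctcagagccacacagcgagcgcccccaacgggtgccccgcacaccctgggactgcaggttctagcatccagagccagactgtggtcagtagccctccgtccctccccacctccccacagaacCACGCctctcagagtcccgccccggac
The match lies 27 bases before the start and is a description of letters, not of binding.

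Over the promoters that RefSeq lists on GRCm38.p6 (250 bases before to 50 after a start), 35 of the 37 members had at least 1, giving 54 promoters. The core ACGTG was present on either strand in 22 of the 54 (40.7%), against 19.6% of 32851 promoters, and GCGTG in 27 (50%), against 32.4%. CACGTG, the E-box that contains ACGTG, was present in 7 (13%, against 7.15%). The core TGACNNNGC, bound by NRF2, was present in 6 (11.1%, against 12.4%). Base composition was not matched between members and all promoters. The promoters of Slc37a4, Gpi1, Tpi1, Pgam2, Eno2 and Rpe held neither hypoxia core on either strand.

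In the upper part of glycolysis, the fitted log2 fold change was above 0 for Pfkp and below 0 for Pfkl and Pfkm, and no phosphofructokinase gene passed an adjusted p of 0.05 in edgeR. Pfkm, the muscle-type subunit and the leading form in this tissue, was at 463, 464, 468 and 457 CPM in the Atm-WT mice and at 411, 447, 446 and 447 CPM in the Atm-KO mice. All Atm-KO mice lay below all Atm-WT mice, although 3 of them by a small margin. For Pfkm the log2 fold change was -0.08 ± 0.059 (SE) with an adjusted p of 0.463 in edgeR, and its 95% interval of -0.21 to 0.05 included 0. Pfkp was at 191, 191, 174 and 157 CPM in the Atm-WT mice and at 217, 202, 203 and 198 CPM in the Atm-KO mice. All Atm-KO mice lay above all Atm-WT mice, with Atm-WT 32M the lowest and Atm-KO 1M the highest. For Pfkp the log2 fold change was 0.20 ± 0.073 (SE), with an adjusted p of 0.165 in edgeR. It was 0.13 (adjusted p = 0.69 in edgeR) without Atm-WT 32M, Atm-KO 1M and Atm-KO 12M. Pfkl, the liver-type subunit, was at 71.5, 67.4, 63.9 and 72.8 CPM in the Atm-WT mice and at 58.4, 65.0, 63.0 and 55.9 CPM in the Atm-KO mice. Its genotypes overlapped between Atm-WT 13M and Atm-KO 7F. For Pfkl the log2 fold change was -0.19 ± 0.070 (SE), with an adjusted p of 0.179 in edgeR, and it was -0.08 without the same 3 mice.

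As shares of the phosphofructokinase sum per kb, Pfkm went from 66.6% ± 1.35 (SD, n = 4) in Atm-WT mice to 63.7% ± 1.62 in Atm-KO mice and Pfkp from 23.7% ± 1.62 to 27.7% ± 1.58, without overlap for either gene. Pfkl made up 9.66% ± 0.676 and 8.60% ± 0.486, with overlap. The Pfkm shares nearly met, at 65.259% in Atm-WT 2M and 65.247% in Atm-KO 12M. Without Atm-WT 32M, Atm-KO 1M and Atm-KO 12M, the Pfkp share ran from 23.3% to 25.0% in Atm-WT mice and from 26.9% to 27.0% in Atm-KO mice. A share does not depend on the scaling between libraries. Part of the reads of these genes may belong to neighbours on the other strand, since Pfkl shares 5126 of its 12881 exonic bases with Cfap410 (log2 fold change 0.15) and Pfkp 1831 of 16462 with Pitrm1 (0.08), and whether the counting used strand was not given.

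Hexokinase, the entry step, was almost all Hk1, with 96.9% of the Hk1 and Hk2 sum per kb in Atm-WT mice and 96.5% in Atm-KO mice. Hk1 was at 321, 287, 294 and 292 CPM in the Atm-WT mice and at 244, 293, 276 and 271 CPM in the Atm-KO mice, and the log2 fold change was -0.14 ± 0.070 (SE). Atm-WT 2M was the highest and Atm-KO 1M the lowest, and Atm-KO 7F lay within the Atm-WT range. Hk2, the inducible form, was at 16.4 to 19.0 CPM in Atm-WT mice and at 17.0 to 19.3 CPM in Atm-KO mice. Gpi1, which turns glucose 6-phosphate into fructose 6-phosphate, was at 284, 271, 270.5 and 285 CPM in the Atm-WT mice and at 243, 282, 270.1 and 259 CPM in the Atm-KO mice. Only Atm-KO 1M and 12M fell clearly outside the Atm-WT range. Aldoa, the muscle-type aldolase, was at 722, 648, 604 and 745 CPM in the Atm-WT mice and at 540.3, 697, 608 and 528 CPM in the Atm-KO mice (log2 fold change -0.20, SE 0.10). Atm-KO 1M and 12M were again the lowest, and Atm-KO 7F was as high as the Atm-WT mice. Tpi1, the triose phosphate isomerase, was at 339, 333, 351 and 382 CPM in the Atm-WT mice and at 316, 321, 354 and 313 CPM in the Atm-KO mice. Its adjusted p was 0.400 in edgeR, with Atm-KO 11M above 3 of the 4 Atm-WT mice.

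From triose phosphate to pyruvate, 6 of the 7 members were lower in Atm-KO mice, beside 53.1% of all genes and 71% of the 20% of genes with the highest mean level. The remaining one was Pgam2, whose level is not read for the reason given below. Only Gapdh had an unadjusted p under 0.05 in edgeR, in the lower direction, beside 8.48% of all genes. Gapdh, which oxidizes glyceraldehyde 3-phosphate and had the highest mean level of the 37 members per kb, was at 957, 942, 956 and 1039 CPM in the Atm-WT mice and at 812, 933, 908 and 775 CPM in the Atm-KO mice. The genotypes did not overlap, but Atm-KO 7F came close to the lowest Atm-WT mouse and Atm-WT 32M stood above the other Atm-WT mice. For Gapdh the log2 fold change was -0.18 ± 0.079 (SE), with an adjusted p of 0.223 in edgeR, and it was -0.05 without Atm-WT 32M, Atm-KO 1M and Atm-KO 12M. Iffo1, which shares 2982 of the 7160 exonic bases of Gapdh on the other strand, had a log2 fold change of 0.20 at a mean of 39.5 CPM in Atm-WT mice.

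Pgk1, the phosphoglycerate kinase on the X chromosome, was at 202, 196, 212 and 227 CPM in the Atm-WT mice and at 192, 205, 205 and 162 CPM in the Atm-KO mice. Only Atm-KO 12M stood clearly below the others. Pgam1, the brain-type phosphoglycerate mutase, was at 123, 113, 116 and 158 CPM in the Atm-WT mice and at 103, 114, 115 and 108 CPM in the Atm-KO mice (log2 fold change -0.21, SE 0.099, unadjusted p = 0.0518 in edgeR). Atm-WT 32M was far above every other mouse. Pgam2, the muscle form, was listed with 4 to 30 counts per library, and its exons lie wholly within those of Dbnl on the other strand, so no level is read from it. Enolase was shared almost evenly between the neuronal Eno2 and the ubiquitous Eno1, with Eno2 at 52.9% ± 1.13 (SD, n = 4) of the sum per kb in Atm-WT mice and 53.7% ± 0.476 in Atm-KO mice. Eno2 was at 649, 639, 667 and 686 CPM in the Atm-WT mice and at 607, 659, 667 and 614 CPM in the Atm-KO mice, with Atm-KO 1M and 12M below and Atm-KO 7F and 11M inside the Atm-WT range. Eno1 was likewise lower in Atm-KO 1M and 12M than in every other mouse, at 464 to 499 CPM in Atm-WT mice and 427 to 480.3 CPM in Atm-KO mice.

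Pkm, the pyruvate kinase of brain that gives the M1 and M2 enzymes by alternative splicing, differed as a whole gene by less than the spread between mice of a genotype. It was at 798, 797, 771 and 858 CPM in the Atm-WT mice and at 752, 818, 835 and 701 CPM in the Atm-KO mice. Atm-KO 7F and 11M lay above 3 of the 4 Atm-WT mice and Atm-KO 1M and 12M below all of them. For Pkm the log2 fold change was -0.05 ± 0.076 (SE), with a 95% interval of -0.22 to 0.11 and an adjusted p of 0.727 in edgeR. Counts per gene add up both splice forms, so a shift between M1 and M2 could not be seen here. Gm49759, a GENCODE entry still to be tested by experiment that shares 3157 of the 13417 exonic bases of Pkm on the same strand, had a mean of 9.11 CPM in Atm-WT mice and 16.8 CPM in Atm-KO mice (adjusted p = 0.0942 in edgeR).

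Lactate dehydrogenase B was lower in every Atm-KO mouse, and the differences in lactate dehydrogenase A and the lactate carriers lay within the spread between mice. Ldhb, whose product favours turning lactate into pyruvate, was at 354, 322, 336 and 389 CPM in the Atm-WT mice and at 281, 300.2, 310.0 and 255 CPM in the Atm-KO mice. No mouse crossed between genotypes, and Atm-WT 32M was the highest and Atm-KO 12M the lowest of the 8. For Ldhb the log2 fold change was -0.29 ± 0.081 (SE), with a 95% interval of -0.47 to -0.11 and an adjusted p of 0.115 in edgeR (unadjusted p = 0.00415) and of 0.0301 in DESeq2. Without Atm-WT 32M, Atm-KO 1M and Atm-KO 12M it was -0.15, with an adjusted p of 0.64 in edgeR. Ldha, the muscle-type subunit, was at 76.1 to 92.6 CPM in Atm-WT mice and 74.6 to 85.4 CPM in Atm-KO mice (log2 fold change -0.07, SE 0.074). The Ldhb share of the Ldha and Ldhb sum per kb was 81.0% ± 1.28 (SD, n = 4) in Atm-WT mice and 78.4% ± 1.78 in Atm-KO mice, and these shares overlapped between Atm-WT 7M and Atm-KO 1M and 7F.

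Slc16a1 (MCT1), the lactate carrier of vessels and glia, was at 68.2, 90.6, 71.1 and 108 CPM in the Atm-WT mice and at 86.7, 70.1, 93.4 and 72.5 CPM in the Atm-KO mice. Its spread within each genotype was wider than the difference between them, which was -0.07 ± 0.14 (SE) on the log2 scale. Slc16a7 (MCT2), the neuronal carrier, was at 64.0 to 80.1 CPM in Atm-WT mice and 67.4 to 75.7 CPM in Atm-KO mice, and Slc16a3 (MCT4) had only 28 to 94 counts per library. No monocarboxylate transporter had an adjusted p under 0.83 in edgeR.

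Of the 4 enzymes that set fructose 2,6-bisphosphate, Pfkfb2 alone had an unadjusted p under 0.05 in edgeR, and the 4 were not tested against each other. Pfkfb2, the heart-type form, was at 21.2, 21.5, 22.2 and 18.1 CPM in the Atm-WT mice and at 30.4, 23.4, 24.0 and 26.7 CPM in the Atm-KO mice. All Atm-KO mice were above all Atm-WT mice, with Atm-KO 1M and 12M the highest and Atm-WT 32M the lowest. For Pfkfb2 the log2 fold change was 0.33 ± 0.10 (SE), with an adjusted p of 0.126 in edgeR (unadjusted p = 0.00687) and of 0.0462 in DESeq2. Leaving out those 3 mice brought it to 0.13, with an adjusted p of 0.755 in edgeR. Pfkfb2 shares 1839 of its 11490 exonic bases with Yod1 on the other strand, which had a mean of 70.6 CPM in Atm-WT mice and 74.9 CPM in Atm-KO mice (log2 fold change 0.08). Pfkfb3, the form with the highest ratio of kinase to phosphatase activity, was at 42.8, 43.8, 39.6 and 42.7 CPM in the Atm-WT mice and at 36.1, 43.0, 43.0 and 29.0 CPM in the Atm-KO mice. Atm-KO 7F and 11M matched the Atm-WT mice and Atm-KO 12M was far below. Pfkfb4 was at 12.5 to 14.9 CPM in Atm-WT mice and 12.3 to 14.0 CPM in Atm-KO mice, and Pfkfb1, the liver form, had 30 to 71 counts per library. The Pfkfb2 share of the family sum per kb was 36.7% ± 2.61 (SD, n = 4) in Atm-WT mice and 44.3% ± 4.64 in Atm-KO mice, without overlap, while that of Pfkfb3 was 40.6% ± 2.01 and 34.7% ± 5.80, with overlap. Without Atm-WT 32M, Atm-KO 1M and Atm-KO 12M, the Pfkfb2 share ran from 37.5% to 38.9% over the 3 remaining Atm-WT mice and from 39.8% to 40.8% over the 2 remaining Atm-KO mice. The plot of shares within families shows these shifts beside the lactate dehydrogenases.

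**Figure D2:**
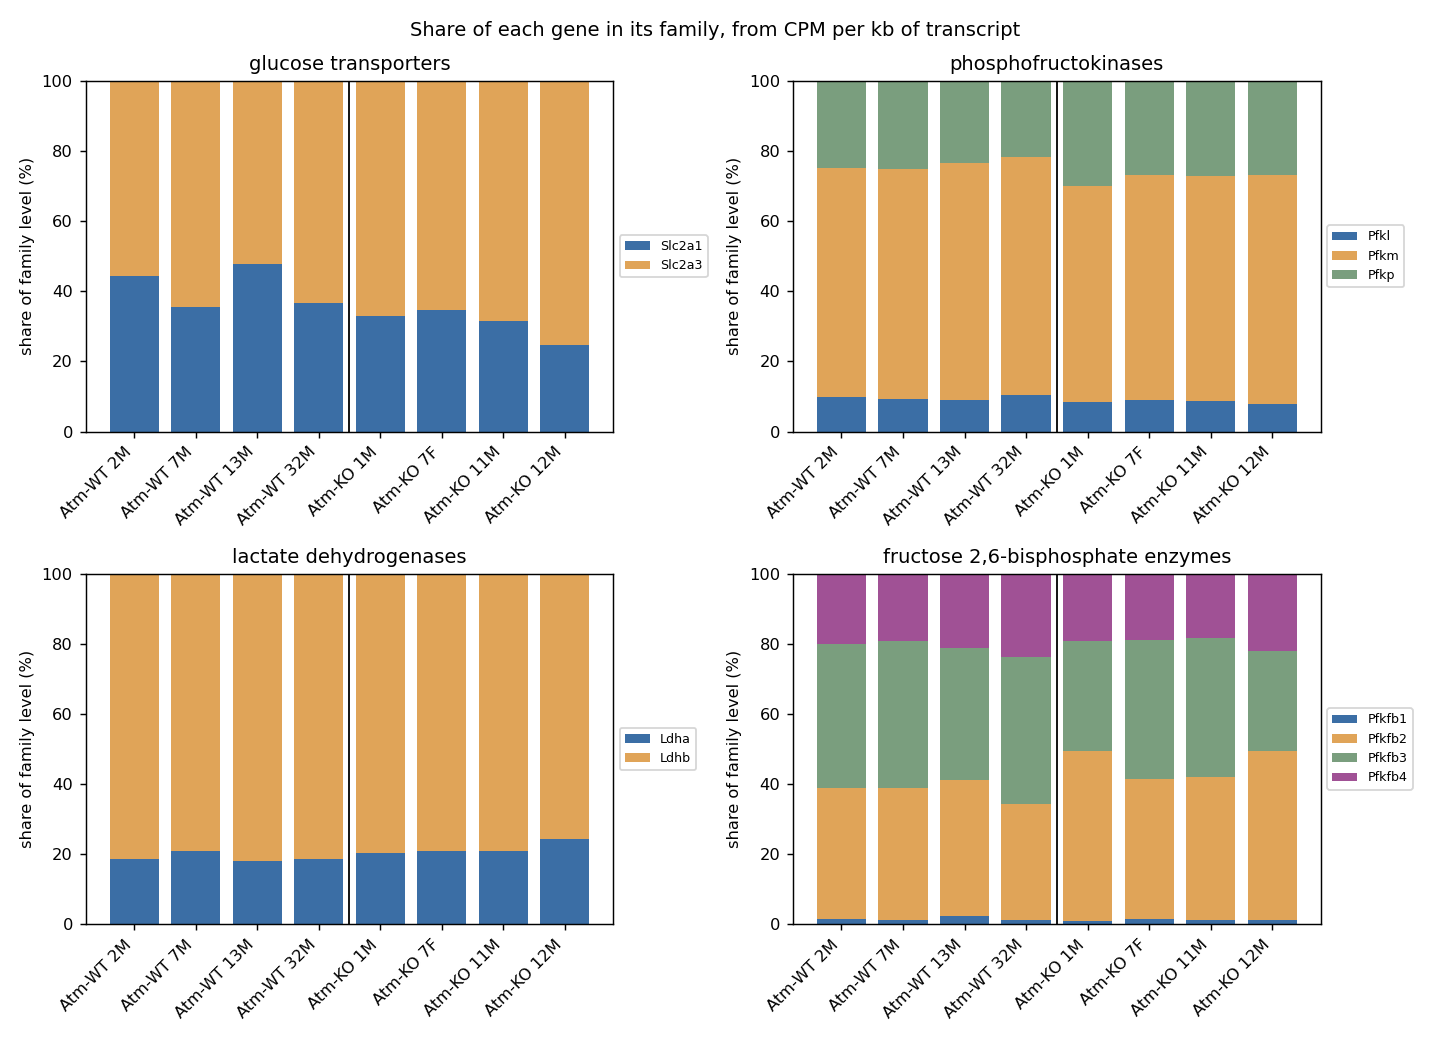
Share of each gene (y axis, percent of the family sum of CPM per kb of transcript) in each of the 8 mice for glucose transporters, phosphofructokinases, lactate dehydrogenases and fructose 2,6-bisphosphate enzymes, with Atm-WT mice left and Atm-KO mice right of the line. The Slc2a1 share is at most 34.8% in Atm-KO mice and at least 35.5% in Atm-WT mice, and the Pfkp and Pfkfb2 shares are higher in every Atm-KO mouse.

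On the glucose 6-phosphate side, all 3 members tested had an unadjusted p under 0.05, with Slc37a4 higher and G6pc3 and Pgm1 lower in Atm-KO mice, beside 11.7% (higher) and 8.48% (lower) of all genes. Without Atm-WT 32M, Atm-KO 1M and Atm-KO 12M, Slc37a4 alone of the 3 had an unadjusted p under 0.05. Slc37a4 was at 11.1, 9.90, 11.7 and 11.03 CPM in the Atm-WT mice and at 15.8, 13.6, 15.7 and 14.4 CPM in the Atm-KO mice. The gap between the highest Atm-WT and the lowest Atm-KO mouse was as wide as the whole range of the Atm-WT mice. For Slc37a4 the log2 fold change was 0.44 ± 0.096 (SE), with a 95% interval of 0.23 to 0.65, an adjusted p of 0.0931 in edgeR (unadjusted p = 0.000657) and of 0.00181 in DESeq2. Without Atm-WT 32M, Atm-KO 1M and Atm-KO 12M it was 0.42 (adjusted p = 0.406 in edgeR), and over all 17 alternatives it stayed between 0.39 and 0.50. Slc37a4 shares 4112 of its 4572 exonic bases with Trappc4 on the other strand. Trappc4 had a mean of 19.7 CPM in Atm-WT mice and 17.9 CPM in Atm-KO mice (log2 fold change -0.14). Whether the counting used strand was not given, so part of the reads of Slc37a4 may belong to Trappc4. Slc37a4 lies on chromosome 9 at 9.03 Mb from Atm. On the same chromosome Pkm lies nearer to Atm, at 6.115 Mb, and Pfkfb4 farther, at 55.37 Mb. Whether the chromosome around Atm came from another strain in the Atm-KO mice was not tested.

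G6pc3, the widely expressed glucose 6-phosphatase that works with Slc37a4, was at 27.2, 25.1, 23.6 and 29.0 CPM in the Atm-WT mice and at 23.1, 23.3, 23.7 and 19.1 CPM in the Atm-KO mice. Atm-KO 12M was far below the other Atm-KO mice, which lay around the lowest Atm-WT mouse. For G6pc3 the log2 fold change was -0.23 ± 0.095 (SE), with an adjusted p of 0.202 in edgeR, and it was -0.11 without Atm-WT 32M, Atm-KO 1M and Atm-KO 12M. Its exons share 2826 of 5534 bases with Hdac5, whose log2 fold change was 0.01. Pgm1, which links glucose 6-phosphate to glycogen, was at 61.5, 67.8, 58.6 and 77.5 CPM in the Atm-WT mice and at 52.1, 59.5, 61.9 and 48.4 CPM in the Atm-KO mice. Atm-WT 32M was the highest, Atm-KO 1M and 12M were the lowest, and the other 5 mice overlapped. For Pgm1 the log2 fold change was -0.26 ± 0.10 (SE), with an adjusted p of 0.192 in edgeR, and it was -0.05 without those 3 mice.

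No member of the oxidative branch of the pentose phosphate pathway had an unadjusted p under 0.05. G6pdx, the NADPH-making first enzyme, was at 58.0, 49.5, 51.7 and 51.5 CPM in the Atm-WT mice and at 45.4, 53.0, 50.2 and 46.6 CPM in the Atm-KO mice. Atm-KO 1M and 12M were the lowest, and the other Atm-KO mice lay inside the Atm-WT range. Its log2 fold change was -0.11 ± 0.074 (SE), with a 95% interval of -0.27 to 0.05 and an adjusted p of 0.418 in edgeR. Pgls, the lactonase that follows, was at 11.6, 9.63, 11.3 and 9.37 CPM in the Atm-WT mice and at 11.7, 10.3, 11.03 and 12.2 CPM in the Atm-KO mice. Pgd, the second NADPH-making enzyme, was at 27.6, 26.1, 26.6 and 29.8 CPM in the Atm-WT mice and at 26.8, 26.6, 26.7 and 28.3 CPM in the Atm-KO mice, within a narrow band in both. The 95% interval of the Pgd difference was -0.18 to 0.13 on the log2 scale.

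In the non-oxidative branch, transketolase lay lower in every Atm-KO mouse than in every Atm-WT mouse. Tkt was at 81.9, 78.1, 76.8 and 88.8 CPM in the Atm-WT mice and at 67.3, 75.4, 76.7 and 62.7 CPM in the Atm-KO mice. The genotypes met between Atm-WT 13M and Atm-KO 11M without crossing, and Atm-KO 12M was the lowest. For Tkt the log2 fold change was -0.21 ± 0.079 (SE), with an adjusted p of 0.182 in edgeR, and it was -0.05 without Atm-WT 32M, Atm-KO 1M and Atm-KO 12M. Taldo1, the transaldolase that works with Tkt, was at 45.6, 42.6, 44.8 and 54.7 CPM in the Atm-WT mice and at 43.4, 43.1, 43.7 and 39.2 CPM in the Atm-KO mice (log2 fold change -0.15, SE 0.084). Atm-WT 32M and Atm-KO 12M were the extremes and the rest overlapped. Rpia, which makes ribose 5-phosphate, was at 10.1, 13.1, 10.5 and 9.53 CPM in the Atm-WT mice and at 11.9, 11.3, 9.68 and 13.04 CPM in the Atm-KO mice. Rpe, the epimerase, was at 30.2, 36.2, 32.5 and 33.5 CPM in the Atm-WT mice and at 34.8, 35.3, 32.6 and 30.9 CPM in the Atm-KO mice, with a log2 fold change of 0.01 ± 0.077 (SE) that was the closest to 0 of all members.

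**Figure D3:**
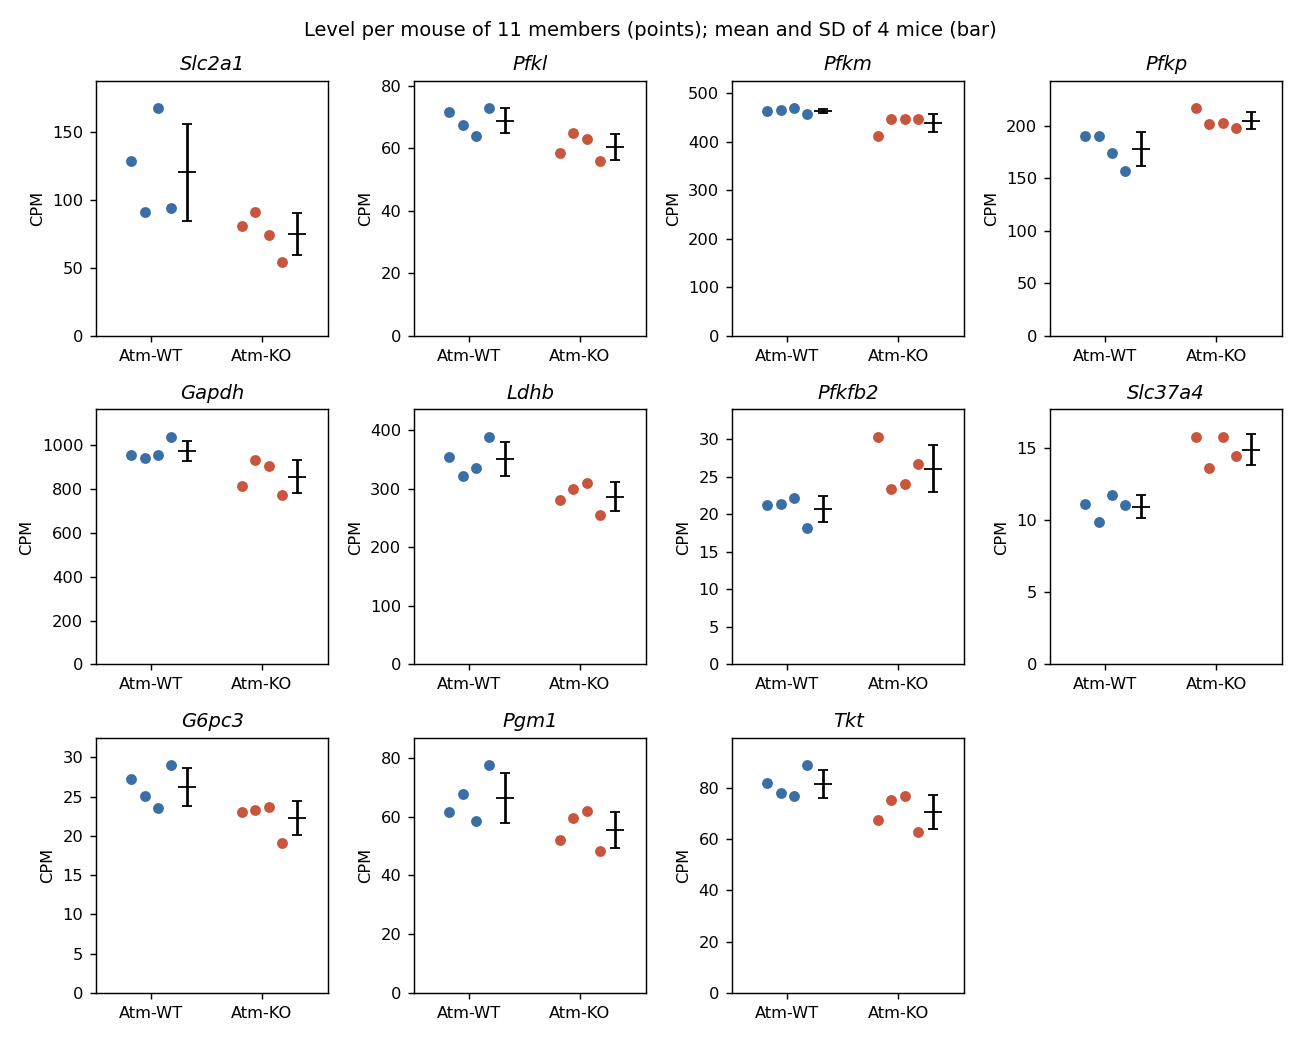
Level in CPM (y axis, from 0) of the 11 members with an unadjusted p under 0.05 or without overlap between genotypes, with 1 point per mouse in the order given in the text and the mean and SD of 4 mice as a bar. Slc37a4, Pfkfb2 and Pfkp sit higher in all Atm-KO mice, and Slc2a1 shows the widest spread for its level among Atm-WT mice, from 91.2 to 168 CPM.

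Much of the difference in the member total was carried by a few mice. The 37 members summed to 6898, 6718, 6747 and 7239 CPM in the Atm-WT mice and to 6094, 6738, 6643 and 5948 CPM in the Atm-KO mice. The totals of Atm-KO 7F and 11M were close to those of Atm-WT 7M and 13M, and Atm-KO 1M and 12M were well below. Atm-KO 12M had the lowest level of all 8 mice for 13 of the 36 members and Atm-KO 1M for 9, whereas Atm-WT 32M had the highest for 19. The map of levels per mouse shows 25 of the 36 members below the Atm-WT mean in both Atm-KO 1M and 12M. The 8 members above that mean in both were Hk2, Pfkp, Pfkfb2, Pfkfb4, Slc37a4, Pgls, Rpia and, within the limit given above for its overlap with Dbnl, Pgam2.

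**Figure D4:**
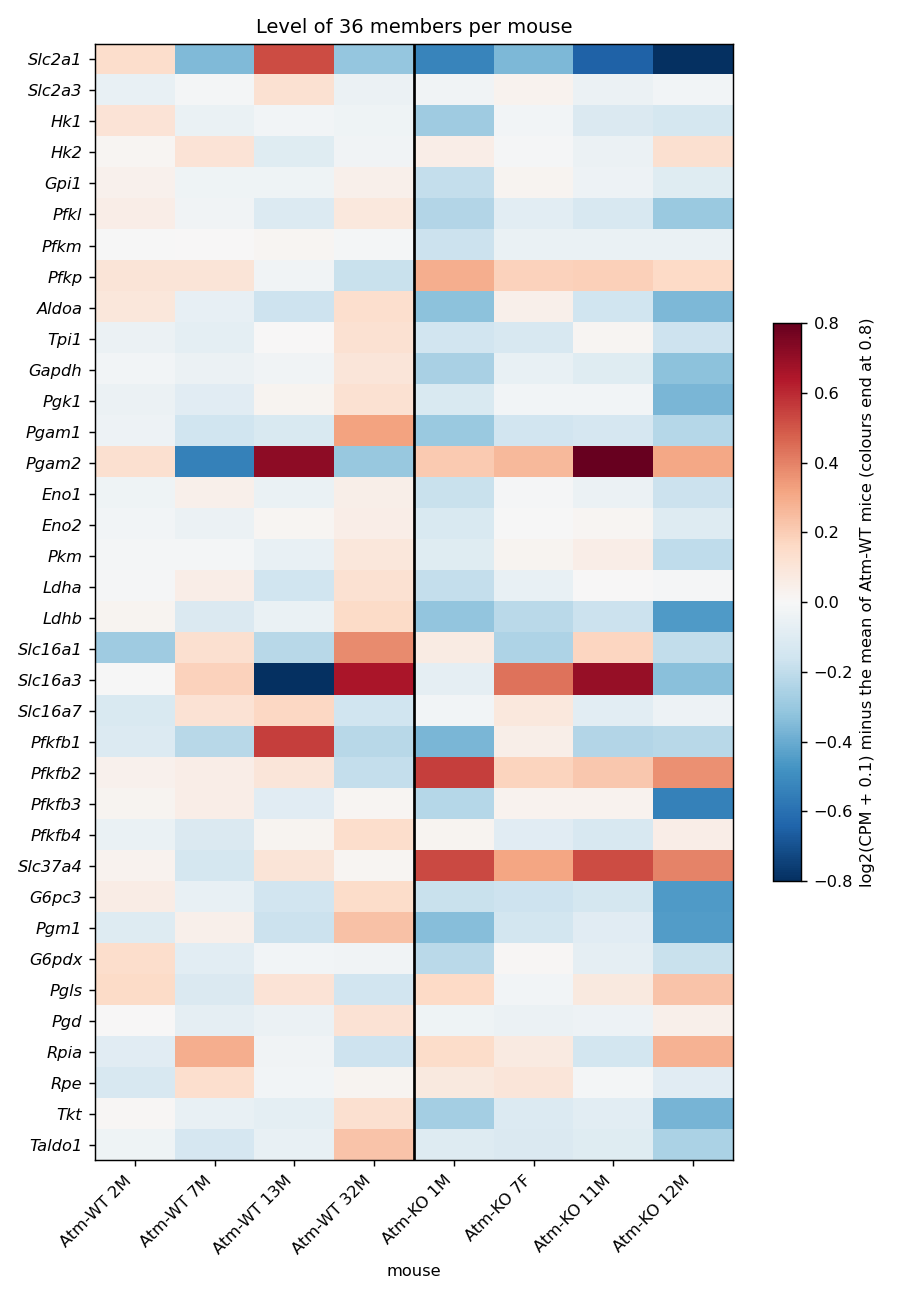
Level of the 36 tested members (rows, by role) in each mouse (columns), as log2(CPM + 0.1) minus the mean of the Atm-WT mice, red for higher and blue for lower. The columns of Atm-KO 1M and 12M are blue for 26 and 27 members, those of Atm-KO 7F and 11M for 21 and 24, those of the Atm-WT mice for 19, 23, 23 and 13, and the rows of Pfkp, Pfkfb2 and Slc37a4 are red in all 4 Atm-KO mice.

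The same mice were at the ends of the range of nuclear RNAs. The 7 nuclear RNAs summed to 8674, 8292, 9211 and 4560 CPM in the Atm-WT mice and to 15014, 9651, 10273 and 14929 CPM in the Atm-KO mice, and 6 of the 7 were higher in Atm-KO mice at an unadjusted p under 0.05 in edgeR, beside 11.7% of all genes. Atm-WT 32M, with the lowest nuclear sum, had the highest member total, and Atm-KO 1M and 12M, with the highest nuclear sums, had the lowest totals. Among the 5 other mice the nuclear sum was 8292 to 9211 CPM in Atm-WT and 9651 to 10273 CPM in Atm-KO mice, and the member totals were 6718 to 6898 and 6643 to 6738 CPM. In those 5 mice the median log2 fold change of members was -0.03, against -5e-04 over all genes, and 8.29% of all genes had an unadjusted p under 0.05 in edgeR. With 1 surrogate variable in the model, 3 members had an unadjusted p under 0.05, beside 10.1% of all genes. Atm-KO 12M also had the lowest oligodendrocyte sum, at 2050 CPM against 3254 to 4446 CPM in the other 7 mice. The part of nuclear RNA content and of cell makeup in the member differences was not tested.

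**Figure D5:**
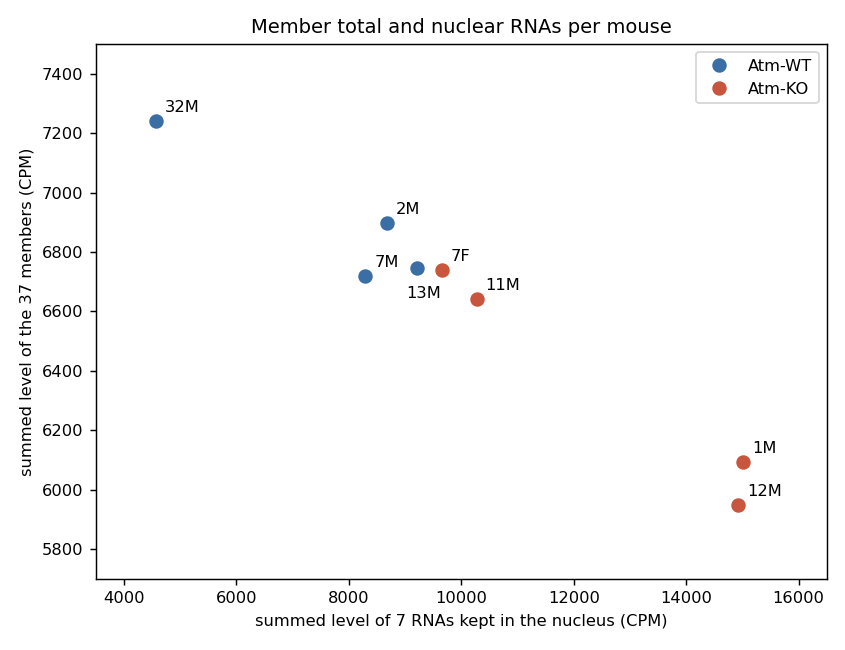
Summed level of the 37 members (y axis, CPM, not from 0) against the summed level of 7 RNAs kept in the nucleus (x axis, CPM), with 1 point per mouse. Atm-WT 32M lies at the upper left and Atm-KO 1M and 12M at the lower right, and the other 5 mice lie together between 6643 and 6898 CPM of members.

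Every gene of the 4 marker lists of glia and choroid plexus had a log2 fold change below 0, as most members had. Of the neuronal lists, 5 granule cell markers were higher and 2 lower (median 0.05). For Purkinje cells, 1 marker was higher and 6 were lower (median -0.11). The 9 astrocyte and Bergmann glia markers summed to 6190 to 7124 CPM in Atm-WT mice and 5666 to 6374 CPM in Atm-KO mice, and the 7 microglia markers to 139.9 to 186 and 107 to 141 CPM. The 8 oligodendrocyte markers summed to 3409 to 4446 and 2050 to 3514 CPM, and the 7 choroid plexus markers to 786 to 1560 and 431 to 1218 CPM. Unadjusted p was under 0.05 in edgeR for 3 of the 9 astrocyte, 5 of the 7 microglia, 4 of the 8 oligodendrocyte and 3 of the 7 choroid plexus genes, all of them lower, beside 8.48% of all genes. The sums of 5 red blood cell and 6 skeletal muscle markers reached at most 49.5 and 3.16 CPM.

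Of 48 other genes of glucose metabolism (further isoforms, carriers and sugar-sensing regulators), 40 were tested, 22 were higher and 18 lower in Atm-KO mice, and 0 passed an adjusted p of 0.05 in edgeR. Unadjusted p was under 0.05 for 5 higher and 6 lower genes of the 40, beside 11.7% and 8.48% of all genes. Txnip, an inhibitor of glucose uptake that glucose itself induces, was at 36.01, 48.4, 60.1 and 39.9 CPM in the Atm-WT mice and at 24.2, 23.3, 24.0 and 19.7 CPM in the Atm-KO mice. Every Atm-KO mouse was far below every Atm-WT mouse. For Txnip the log2 fold change was -1.02 ± 0.14 (SE), with an adjusted p of 0.0513 in edgeR. Slc2a6, a lysosomal hexose carrier, was at 13.2, 13.8, 13.9 and 9.81 CPM in the Atm-WT mice and at 20.5, 16.4, 17.2 and 23.1 CPM in the Atm-KO mice, again without overlap. For Slc2a6 the log2 fold change was 0.60 ± 0.14 (SE), with an adjusted p of 0.0942 in edgeR. Without Atm-WT 32M, Atm-KO 1M and Atm-KO 12M it was 0.30 (adjusted p = 0.48 in edgeR), and that of Txnip was -1.03 (adjusted p = 0.106). The fructose carrier Slc2a5, which in brain marks microglia, was at 1.08 to 1.56 CPM in Atm-WT mice and 0.503 to 0.877 CPM in Atm-KO mice (log2 fold change -0.83, SE 0.25, and -0.46 without the same 3 mice). Eno3, the muscle enolase, was at 3.96 to 4.56 and 4.87 to 6.48 CPM (log2 fold change 0.38, SE 0.14), and Gckr, the glucokinase regulator, was at 0.0350 to 0.269 and 0.527 to 0.851 CPM (log2 fold change 2.11, SE 0.48), both without overlap and both at low levels. Without the 3 mice these log2 fold changes were 0.21 and 1.90. Aldoc, the aldolase of astrocytes and Purkinje cells, was at 1219, 1180.1, 1177 and 1195 CPM in the Atm-WT mice and at 912, 1238, 1083 and 1055 CPM in the Atm-KO mice, so that its genotypes overlapped.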

How the data were processed

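Total RNA of frozen cerebellum was sequenced for 4 Atm-WT and 4 Atm-KO mice. Per the methods and the submitters' processing notes, the authors passed reads through FastQC 0.11.9, mapped them to GRCm39 with STAR, used featureCounts for the counts per gene and deposited these raw. The strand and pair settings of the counting were not given in the sources used here. Low counts (1 to 50) were even in 67.3% to 73.3% of cases per library, so that a count may stand for reads and not for fragments.

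Gene identifiers were matched without version to GENCODE vM39 (98.8% of 56691). Genes kept by filterByExpr (22423) were scaled by TMM and tested with glmQLFit and glmQLFTest in edgeR 4.0.16 (R 4.3.3), without covariates, and p-values were adjusted by Benjamini-Hochberg over all of them. Standard errors were taken from the log2 fold change and its F value. Levels per kb used the canonical transcript length. The steps were tested on simulated data. Alternatives used DESeq2 1.42.0, limma 3.58.1 and sva 3.50.0. Leaving out 3 mice together was chosen after seeing the data. The members, the lists of other genes and markers and the rules for naming were chosen with earlier results of these data known. All members are named. Values per mouse are given for those with an unadjusted p under 0.05, no overlap or the leading form of a step, and other pathway genes are named with an unadjusted p under 0.05 and no overlap, with Aldoc added after its values were seen. Replicates are mice as named in the labels, and depth was 65967130 to 88030300 counts per library. The sequence in front of Ldhb is not reported here.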

Additional observations from a re-analysis of the deposited data

Results flagged for a closer look

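In 7 of 72 sets of 4 mice (36 members in each genotype), 1 mouse stood far from the other 3 of its genotype by Dixon's test, where chance alone gives about 3.6. Of these, 4 were at Atm-KO 12M or 1M. Pfkm was at 410.9 CPM in Atm-KO 1M and at 446 to 447 CPM in the other Atm-KO mice. In Atm-KO 12M, G6pc3 was at 19.1 CPM (others 23.1 to 23.7), Taldo1 at 39.2 CPM (others 43.1 to 43.7) and Pgd at 28.3 CPM (others 26.6 to 26.8), the first 2 below and the last above the rest. Gapdh was at 1039 CPM in Atm-WT 32M, against 942 to 957 CPM in the other Atm-WT mice. The other 2 are low-count genes, Pgam2 at 0.387 CPM in Atm-KO 11M (others 0.159 to 0.178) and Pfkfb1 at 0.828 CPM in Atm-WT 13M (others 0.443 to 0.488). The exons of Pgam2 lie wholly within those of Dbnl on the other strand, so its value cannot be read as a level of Pgam2 RNA.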

How the results depend on the processing

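Members past an adjusted p of 0.05 numbered 0 in edgeR, 3 in DESeq2 and 2 (Slc37a4 higher, Slc2a1 lower) in edgeR with no filter on low counts, and 0 in the other alternatives. Over all genes, DESeq2 called 6.92% and edgeR with no filter 1.62%. Members at an unadjusted p under 0.05 numbered 10 (27.8%, beside 20.2% of all genes), and 12 with no filter on low counts (32.4%, beside 14.8%), 5 with library size alone (13.9%, beside 19.2%), 6 with protein-coding genes alone (16.7%, beside 16.8%), 3 with 1 surrogate variable (8.33%, beside 10.1%), 2 without Atm-WT 32M, Atm-KO 1M and Atm-KO 12M together (5.56%, beside 8.29%), and 5 to 11 on leaving out each library in turn (13.9% to 30.6%, beside 13.6% to 21.6%). Members without overlap between genotypes numbered 8, and 3 with library size alone (3 higher, 0 lower, beside 8.35% and 2.64% of all genes), 4 with protein-coding genes alone (3 higher, 1 lower, beside 5.91% and 4.47%) and 5 with at least 10 counts in every library (3 higher, 2 lower, beside 7.72% and 4.17%), and the cause was not tested. With fewer mice, where separation is easier, they numbered 8 to 12 on leaving out each library (12 without Atm-WT 7M, beside 9.4% higher and 8.43% lower of all genes) and 10 without the 3 mice (beside 13.5% and 12.1%). The median log2 fold change of members (-0.08) was negative in all 17 alternatives and nearest to 0 at -0.03 without the 3 mice, with library size alone and with 1 surrogate variable, with -0.04 for protein-coding genes alone, and the 11 members of the plot by mouse kept their direction in all of them. No paired analysis was run, since the labels name no pairs and the litter of each mouse was not given. Depth does not limit the 33 members with a mean of at least 100 counts, and it does limit Fbp2, Pgam2, Pfkfb1 and Slc16a3.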
